A study of Mus musculus with 5 samples.

Results

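The tumour necrosis factor (TNF) superfamily consists of ligands, most of them anchored in the membrane, and of the receptors that bind them on the same or a neighbouring cell. Its ligands and receptors were followed in mouse pro-B cells after deletion of Ebf1, a transcription factor of the B lineage. The members were taken by name: all array features whose gene symbol begins with Tnfrsf or Tnfsf and a digit, together with Tnf, Lta, Ltb, Ltbr, Cd27, Cd70, Eda2r, Fasl and Ngfr. That gave 112 of 45018 features, for 40 of 19087 named genes, of which 16 encode ligands and 24 encode receptors.

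Expression was measured on 5 Agilent arrays of 1 colour (Cy3), 1 array for each culture of fetal liver pro-B cells. In the Ebf fl/fl group (n = 3, cultures 4, 5 and 7) both Ebf1 alleles were floxed, and in the Ebf+/fl group (n = 2, cultures 3 and 6) 1 allele was floxed. Both groups carried Cre fused to the oestrogen receptor and both received 4-hydroxytamoxifen for 24 hours, so the Ebf+/fl cultures could also lose their floxed allele. RNA was taken after 4 further days. The cultures came from embryos of 16.5 days post coitum and grew on OP-9 stromal cells with interleukin-7. The labels name neither the promoter that drives Cre nor the number of embryos behind a culture, so the p-values measure the spread between these cultures. A first number in the sample titles is 93 for all Ebf fl/fl and 111 for all Ebf+/fl cultures, so whatever it stands for and genotype cannot be told apart.

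Signalling through these receptors runs along 2 main routes. Receptors with a death domain recruit adaptors that can activate caspase 8, and receptors that bind TRAF adaptors activate the kinases of the NF-kappaB pathway. In B cells the ligands BAFF and APRIL and their receptors govern survival and maturation, lymphotoxin organises lymphoid tissue, and the pairs around Cd27, CD30, OX40 and GITR act in contacts between lymphocytes.

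Levels are given on the log2 scale after division by the 75th percentile of all intensities on that array, so 0 stands for that percentile. Each gene is represented by its feature with the highest mean over the 5 arrays. Levels were compared between groups within a feature and not between genes. The 40th percentile of each array serves as a lower limit of measurement, and a gene was tested where 2 or more of the 5 arrays lay above it. The threshold was a limma adjusted p of 0.05 over 13419 genes, and "rose" and "fell" are used only for genes past it.

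The targeted gene was seen by 3 features, which differed. The feature for AK036716 stood at -4.19, -5.01 and -4.02 in Ebf fl/fl cultures 4, 5 and 7, against -1.47 and -1.30 in Ebf+/fl cultures 3 and 6, and fell 8.11-fold (limma adjusted p = 0.00375 over 28007 features, of which 12.8% passed, 5.93% as higher and 6.88% as lower). The features for NM_007897 and AK042875 had log2 fold changes of -0.25 and 0.44 (adjusted p = 0.317 and 0.270), and where the features lie relative to the deleted part was not determined here. All 11 pro-B markers with a feature, such as Cd79a, Cd79b and Pax5, exceeded the lower limit in all 5 arrays. Their summed linear level was 734 to 939 times the 75th percentile in Ebf fl/fl cultures, against 1667 to 1799 times in Ebf+/fl cultures. Of the 11, 6 fell and 0 rose, beside 8.74% and 8.58% of all tested genes. Igll1, Il7r, Vpreb2, Vpreb1, Dntt and Rag1 fell, by 2.52- to 20.9-fold. Cd79a, Cd79b, Pax5, Blnk and Ebf1 at its brightest feature did not pass the threshold. The 12 stromal markers summed to 1.36 to 2.13 in Ebf fl/fl cultures and 1.53 to 1.66 in Ebf+/fl cultures. The 8 myeloid markers summed to 3.28 to 3.73 in Ebf fl/fl cultures, against 16.0 in Ebf+/fl 3 and 5.42 in Ebf+/fl 6. Most of each sum came from Lyz2, which did not pass (log2 fold change -1.75, limma adjusted p = 0.0554). Of 5 tested, Itgam alone fell and 0 rose, beside 8.74% and 8.58% of all tested genes. Mpo, Cd14 and Fcgr3 had log2 fold changes of 0.02, -0.49 and -0.15 with overlapping groups. The part of myeloid cells in the results was not tested. Xist, the RNA of the inactive X chromosome, was high in Ebf fl/fl 7 and Ebf+/fl 6 alone, so both groups held such a culture.

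Of the 40 genes, 29 were tested, 5 rose, 5 fell and 19 did not pass the threshold. Each direction made up 17.2% of the tested members, against 8.58% of all tested genes that rose and 8.74% that fell. The members that rose were the receptors Tnfrsf1a, Tnfrsf1b, Tnfrsf12a, Tnfrsf13b and Tnfrsf26, by 1.47- to 2.43-fold. Those that fell were the ligands Tnfsf10 and Tnfsf8 and the receptors Tnfrsf18, Tnfrsf19 and Tnfrsf21, by 2.16- to 11.2-fold. The groups did not overlap in 18 of the 29 tested members (62.1%), against 51.7% of all tested genes, of which 30.5% were higher and 21.2% lower in Ebf fl/fl cultures; among the members 11 were higher and 7 lower. The median log2 fold change of the tested members was 0.37, against 0.10 over all tested genes. Without scaling between arrays 1 member rose and 5 fell, and the share of higher genes among all genes called was 38.6% in place of 49.5%, with a median of -0.04 over all tested genes. Leaving out 1 culture gave 1 to 4 members that rose and 2 to 5 that fell. For these counts the values were 2 and 3 without Ebf fl/fl 4, 1 and 3 without Ebf fl/fl 5, 1 and 2 without Ebf+/fl 3, and 2 and 3 without Ebf+/fl 6.

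**Figure D1:**
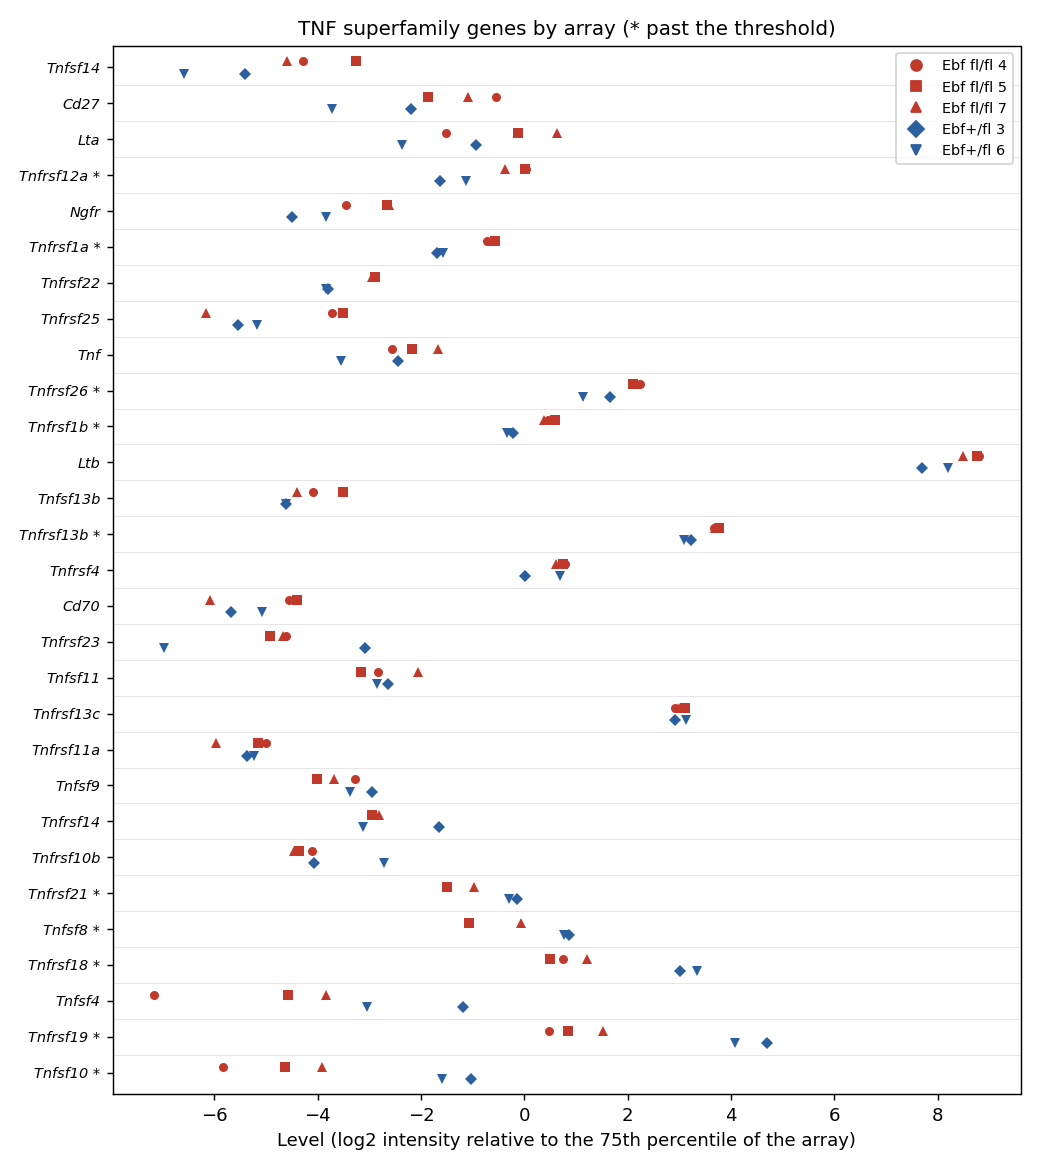
Level of each of the 29 tested TNF superfamily genes in each culture, as log2 of intensity over the array's 75th percentile (x axis). Red marks are the Ebf fl/fl cultures 4, 5 and 7, blue marks the Ebf+/fl cultures 3 and 6, and an asterisk marks the 10 genes past the threshold; red and blue marks do not overlap in 18 rows.

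The upstream sequence is shown for the 3 genes with the largest falls among the members past the threshold, and for Ltb because it holds an NF-kappaB motif. Each window holds the 250 bases before the start of the gene from RefSeq (GRCm38.p6), 5′ to 3′ in the direction of the gene. In the first 3, capitals mark CAGGTG on either strand, a motif bound by E proteins, which act with Ebf1 in early B cells. In Ltb they mark the strict NF-kappaB motif, which reads on the opposite strand. The Ltb window also holds CAGGTG, which is left there in lower case.
Tnfrsf18, chr4:156026072-156026321, plus strand: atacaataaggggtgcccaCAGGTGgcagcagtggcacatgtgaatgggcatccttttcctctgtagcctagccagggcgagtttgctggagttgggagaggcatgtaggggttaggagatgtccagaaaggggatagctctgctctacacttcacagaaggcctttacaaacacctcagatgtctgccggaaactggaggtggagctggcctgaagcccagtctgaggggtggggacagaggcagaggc
Tnfrsf19, chr14:61046856-61047105, minus strand: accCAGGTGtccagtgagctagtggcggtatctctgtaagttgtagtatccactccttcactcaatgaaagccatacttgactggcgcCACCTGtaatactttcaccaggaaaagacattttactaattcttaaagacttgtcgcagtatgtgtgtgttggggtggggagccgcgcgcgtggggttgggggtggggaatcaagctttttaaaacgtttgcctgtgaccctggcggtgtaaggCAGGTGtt
Tnfsf10, chr3:27316827-27317076, plus strand: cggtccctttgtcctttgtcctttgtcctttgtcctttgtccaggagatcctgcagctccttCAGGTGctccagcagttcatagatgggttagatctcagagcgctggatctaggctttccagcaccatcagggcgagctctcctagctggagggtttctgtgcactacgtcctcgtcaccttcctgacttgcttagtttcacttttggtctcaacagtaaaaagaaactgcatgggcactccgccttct
Ltb, chr17:35194257-35194506, plus strand: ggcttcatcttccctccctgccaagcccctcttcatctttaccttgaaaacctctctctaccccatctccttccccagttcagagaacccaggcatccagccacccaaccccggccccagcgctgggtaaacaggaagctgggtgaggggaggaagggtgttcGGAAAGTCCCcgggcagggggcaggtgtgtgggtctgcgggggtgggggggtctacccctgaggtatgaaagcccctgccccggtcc

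Promoter windows of 300 bases (250 before and 50 after the start) were matched for 32 of the 40 genes, in 36 windows, and both strands were searched. The palindromic Ebf1 consensus occurred in 0 of the 36 windows and in 0.904% of all 32851 windows. Its core CCCNNGGG, which lies within the consensus, occurred in 6 of the 36 (16.7%), against 13.7% of all windows. These belonged to Cd27, Tnf, Tnfrsf14, Tnfrsf25, Tnfsf13 and Tnfsf18, none of which was among the 9 called genes with a window. The relaxed NF-kappaB motif was found for Ltb, Tnfrsf25 and Tnfrsf9, in 8.33% of the member windows against 1.63% of all, and the strict form, which also counts as relaxed, for Ltb, against 0.155% of all windows. CAGGTG, which was searched after the values were seen, occurred in 10 of the 36 windows (27.8%), against 20.2% of all. It was present for 3 of the 5 members that fell and for Tnfrsf1b among those that rose. Members with it that did not pass or were not tested were Ltb, Tnfrsf11a, Tnfrsf13c, Tnfrsf8, Tnfrsf9 and Tnfsf14. A match is a description of these letters and not evidence of binding.

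Among the members that fell, Tnfrsf19 and Tnfrsf18 passed under all 17 alternative settings, including each fit without 1 culture. Tnfrsf19, or TROY, is an orphan receptor that binds TRAF adaptors. Its level was 0.47, 0.85 and 1.52 in Ebf fl/fl cultures 4, 5 and 7, against 4.69 and 4.09 in Ebf+/fl cultures 3 and 6. Even the highest Ebf fl/fl culture lay far below the lower of the Ebf+/fl pair. The gene fell 10.9-fold (log2 fold change -3.44, SE 0.33, limma adjusted p = 0.00204). A second feature, for BC030062, was below the lower limit in all 3 Ebf fl/fl cultures and was at least 1.78-fold lower (limma adjusted p = 0.0264 over features). It entered the test only through the Ebf+/fl arrays and is given as a description. The mean of both features had a log2 fold change of -2.78.

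Tnfrsf18 encodes GITR, a costimulatory receptor of T cells. Ebf fl/fl cultures 4, 5 and 7 had levels of 0.75, 0.51 and 1.21, against 3.02 and 3.34 in Ebf+/fl cultures 3 and 6. The spread within each group was small beside the gap between them. Tnfrsf18 fell 5.13-fold (log2 fold change -2.36, SE 0.23, limma adjusted p = 0.00226). Next to it on chromosome 4, with 0 coding genes between, lies Tnfrsf4, the receptor OX40. The log2 difference for Tnfrsf4 was 0.37 (95% interval -0.17 to 0.90, adjusted p = 0.302) and its groups overlapped.

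Tnfsf10 encodes TRAIL, a ligand that can kill cells through death receptors. It stood at -5.83, -4.63 and -3.91 in Ebf fl/fl cultures 4, 5 and 7, against -1.03 and -1.59 in Ebf+/fl cultures 3 and 6. All Ebf fl/fl cultures were low, and culture 4 was below the lower limit. The gene fell 11.2-fold (log2 fold change -3.48, SE 0.57, limma adjusted p = 0.0104), and it did not pass without Ebf+/fl 3 (log2 fold change -3.20, adjusted p = 0.0800). Natural killer and innate lymphoid cells can also express TRAIL and GITR. The 8 markers of those cells summed to 0.257 to 0.288 times the 75th percentile in Ebf fl/fl cultures, against 0.879 to 0.974 times in Ebf+/fl cultures, and 3 or 4 of the 8 exceeded the lower limit in each array. Of their 4 tested members Klrb1c fell by 3.11 on the log2 scale and 0 rose, beside 8.74% and 8.58% of all tested genes. Klrb1c stood at -0.35 and -0.47 in Ebf+/fl cultures 3 and 6 and made up most of the Ebf+/fl sums. Prf1 was higher in every Ebf fl/fl culture than in either Ebf+/fl culture (log2 fold change 0.82, limma adjusted p = 0.101). Tbx21 and Rora had log2 fold changes of 0.12 and -0.70 with overlapping groups. The 6 T-cell markers summed to 0.265 to 0.312 in Ebf fl/fl cultures, against 0.221 to 0.238 in Ebf+/fl cultures. Of 5 tested, Cd3g alone rose and 0 fell, beside 8.58% and 8.74% of all tested genes. Cd3g entered the test only through the Ebf fl/fl arrays, and its call is given as a description. Bcl11b had a log2 fold change of -2.21 (limma adjusted p = 0.0786) and lay below the lower limit in all Ebf fl/fl cultures. Without overlap 3 of the 5 were higher and 1 was lower, beside 30.5% and 21.2% of all tested genes. The part of such cells in these results was not tested, and in bulk RNA fewer cells of a type and less RNA per cell cannot be told apart.

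In mouse, TRAIL binds the death receptor encoded by Tnfrsf10b and the decoys encoded by Tnfrsf22 and Tnfrsf23. Tnfrsf10b had levels of -4.10, -4.37 and -4.46 in Ebf fl/fl cultures, against -4.08 and -2.72 in Ebf+/fl cultures (log2 fold change -0.91, adjusted p = 0.216), and only Ebf+/fl 6 stood clearly apart. Its 2 other features had log2 fold changes of -0.08 and -1.93, the second with 1 of 5 arrays above the lower limit. Tnfrsf22 was at -2.91, -2.88 and -2.94 in Ebf fl/fl cultures 4, 5 and 7, against -3.79 and -3.84 in Ebf+/fl cultures 3 and 6. The groups were separate, but the log2 fold change of 0.90 (SE 0.25) had a limma adjusted p of 0.0518, just outside the threshold, and it passed under 7 of 16 alternative settings. Tnfrsf23 lay between -4.92 and -4.62 in Ebf fl/fl cultures, with Ebf+/fl 3 above them at -3.09 and Ebf+/fl 6 below at -6.98, so no direction was resolved.

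Tnfrsf26 lies beside Tnfrsf22 in the same cluster of receptor genes on chromosome 7. Its level was 2.25, 2.11 and 2.17 in Ebf fl/fl cultures 4, 5 and 7, against 1.66 and 1.14 in Ebf+/fl cultures 3 and 6. The Ebf fl/fl cultures were close to one another and above both Ebf+/fl cultures. Tnfrsf26 rose 1.71-fold (limma adjusted p = 0.0358), but did not pass without Ebf fl/fl 4 (adjusted p = 0.0931), 5 (0.0801) or 7 (0.0707) or without Ebf+/fl 6 (0.129). Nor did it pass with the Xist-high cultures as a block (0.0629), without scaling (0.140) or without the variance trend (0.0745).

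Tnfrsf21 encodes death receptor 6. Its level was -1.52, -1.49 and -0.98 in Ebf fl/fl cultures 4, 5 and 7, against -0.13 and -0.30 in Ebf+/fl cultures 3 and 6. Every Ebf fl/fl culture was below both Ebf+/fl cultures, in all 3 features of the gene. For comparison, 21.2% of all tested genes were lower without overlap. Tnfrsf21 fell 2.16-fold (limma adjusted p = 0.0227), and the 2 other features had log2 fold changes of -2.13 and -1.37 (limma adjusted p over features = 0.0273 and 0.0694). The call was lost without Ebf fl/fl 4 (0.0607) or 5 (0.0659) and without Ebf+/fl 3 (0.136) or 6 (0.0646), and with the median of the features (0.0661).

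Ngfr, the neurotrophin receptor p75 with a death domain, was covered by 11 features. At the brightest of them it stood at -3.44, -2.67 and -2.62 in Ebf fl/fl cultures, against -4.50 and -3.84 in Ebf+/fl cultures (log2 fold change 1.26, limma adjusted p = 0.0685). The groups were separate by a narrow margin. Of the 11 features 5 passed as higher in the fit over features, in which 5.93% of all features did, and 1 had a log2 fold change of -0.12 while the other 10 ranged from 1.15 to 2.00. Taking the mean of the features gave a log2 fold change of 1.39 (adjusted p = 0.0448). Tnfrsf25, or death receptor 3, was above the lower limit in 3 arrays and its log2 difference was 0.90 (SE 0.82, adjusted p = 0.497), which became 1.75 without Ebf fl/fl 7 (adjusted p = 0.0388). Its ligand Tnfsf15 and the death ligand Fasl were below the lower limit in all 5 arrays.

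**Figure D2:**
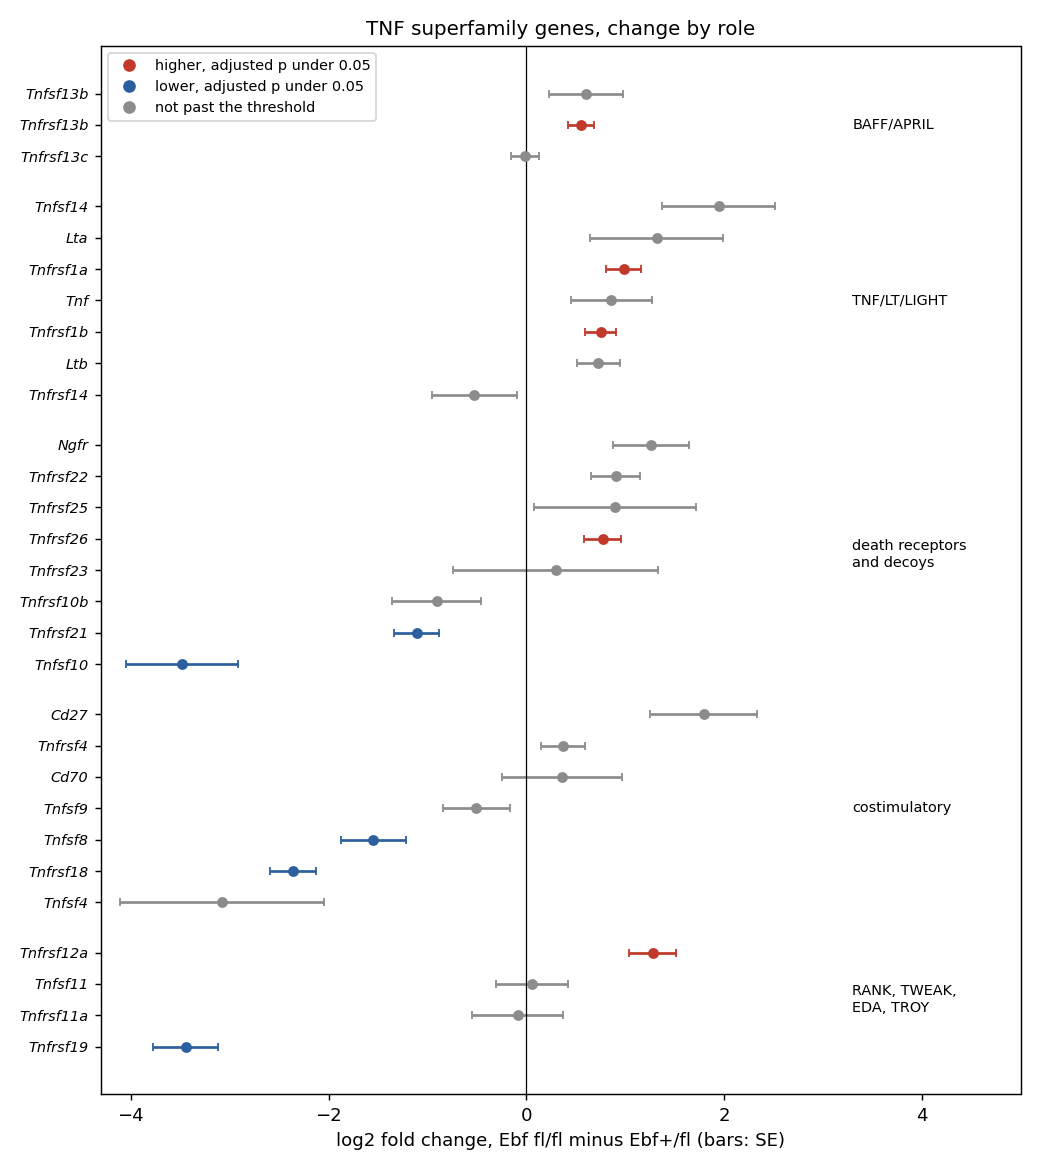
Log2 fold change of each tested member, Ebf fl/fl minus Ebf+/fl (x axis), grouped by role, with bars for the standard error from the fit. Red, blue and grey points are members that rose (5), fell (5) or did not pass (19); Tnfsf10, Tnfrsf19 and Tnfrsf18 lie farthest left among the members that fell, and the point of Tnfsf14 is the fitted value, not the bound.

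The receptors for TNF itself were higher in Ebf fl/fl cultures. Tnfrsf1a encodes TNF receptor 1, which carries a death domain. At its brightest feature it had levels of -0.73, -0.57 and -0.63 in Ebf fl/fl cultures 4, 5 and 7, against -1.68 and -1.57 in Ebf+/fl cultures 3 and 6. The groups were far apart relative to their spread. It rose 1.98-fold (log2 fold change 0.98, SE 0.18, limma adjusted p = 0.0145), and did not pass without Ebf+/fl 3 (log2 fold change 1.03, adjusted p = 0.0632) or without scaling (0.0670). The array carried 10 features for this gene, and the other 9 differed from the brightest in 1 culture. Those 9 lay between -0.73 and -0.38 in Ebf fl/fl cultures, against -3.35 to -3.08 in Ebf+/fl 3 and -1.59 to -1.46 in Ebf+/fl 6. Their log2 fold changes were 1.70 to 1.85, with limma adjusted p over features of 0.0400 to 0.0579. Of the 9, 6 passed as higher in that fit, in which 5.93% of all features did. All 10 features were higher in every Ebf fl/fl culture than in either Ebf+/fl culture. For comparison, 30.5% of all tested genes were higher without overlap. The size of the change rests on which feature is read in Ebf+/fl 3: the median of the features gave a log2 fold change of 1.79.

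Tnfrsf1b, TNF receptor 2, binds TRAF adaptors and has no death domain. Its level was 0.46, 0.60 and 0.38 in Ebf fl/fl cultures 4, 5 and 7, against -0.22 and -0.33 in Ebf+/fl cultures 3 and 6. Its 11 features had log2 fold changes of 0.39 to 0.76. The groups did not overlap in any of them, while 30.5% of all tested genes were higher without overlap. Of the 11, 6 passed as higher in the fit over features, in which 5.93% of all features did. Tnfrsf1b rose 1.69-fold (limma adjusted p = 0.0236). It did not pass without Ebf fl/fl 4 (adjusted p = 0.0713) or 5 (0.129) or without Ebf+/fl 3 (0.0981) or 6 (0.0887). The call also ended with the Xist-high cultures as a block (0.0565), without scaling (0.0960) and with quantile normalization (0.0540).

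The genes of TNF and both lymphotoxin chains neighbour each other on chromosome 17, with 0 coding genes between them. Each had a positive log2 fold change and none passed the threshold. Ltb, the membrane chain of lymphotoxin, was at 8.81, 8.76 and 8.50 in Ebf fl/fl cultures 4, 5 and 7, against 7.71 and 8.21 in Ebf+/fl cultures 3 and 6. Those values are far above the 75th percentile in all 5 arrays, and the groups were separate (log2 fold change 0.73, SE 0.22, limma adjusted p = 0.0672). Tnf was at -2.55, -2.18 and -1.68 in Ebf fl/fl cultures, against -2.45 and -3.54 in Ebf+/fl cultures (log2 fold change 0.86, adjusted p = 0.199). Lta, the soluble lymphotoxin chain, was at -1.51, -0.11 and 0.63 in Ebf fl/fl cultures, against -0.94 and -2.36 in Ebf+/fl cultures (log2 fold change 1.32, adjusted p = 0.225). Both genes were highest in Ebf fl/fl 7 and lowest in Ebf+/fl 6, and in both Ebf+/fl 3 lay above Ebf fl/fl 4. For Tnf that overlap belongs to the brightest feature: in 9 of its 10 features the groups were separate. Beside this, 30.5% of all tested genes were higher without overlap.

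All features of a gene read the same 5 cultures, so agreement between them is not replication. The spread over the features of a gene within an array may come from repeated spots or from different probes, which the annotation does not tell apart. For Lta the standard deviation over 10 features was 0.06 to 0.13 on the log2 scale in the 5 arrays, and for Tnf 0.08 to 0.20. For Tnfrsf1a it reached 0.50 in Ebf+/fl 3 through the 1 deviating feature. In Tnfrsf1b a single feature lay lower in every culture and raised the standard deviation to between 0.57 and 0.77.

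**Figure D3:**
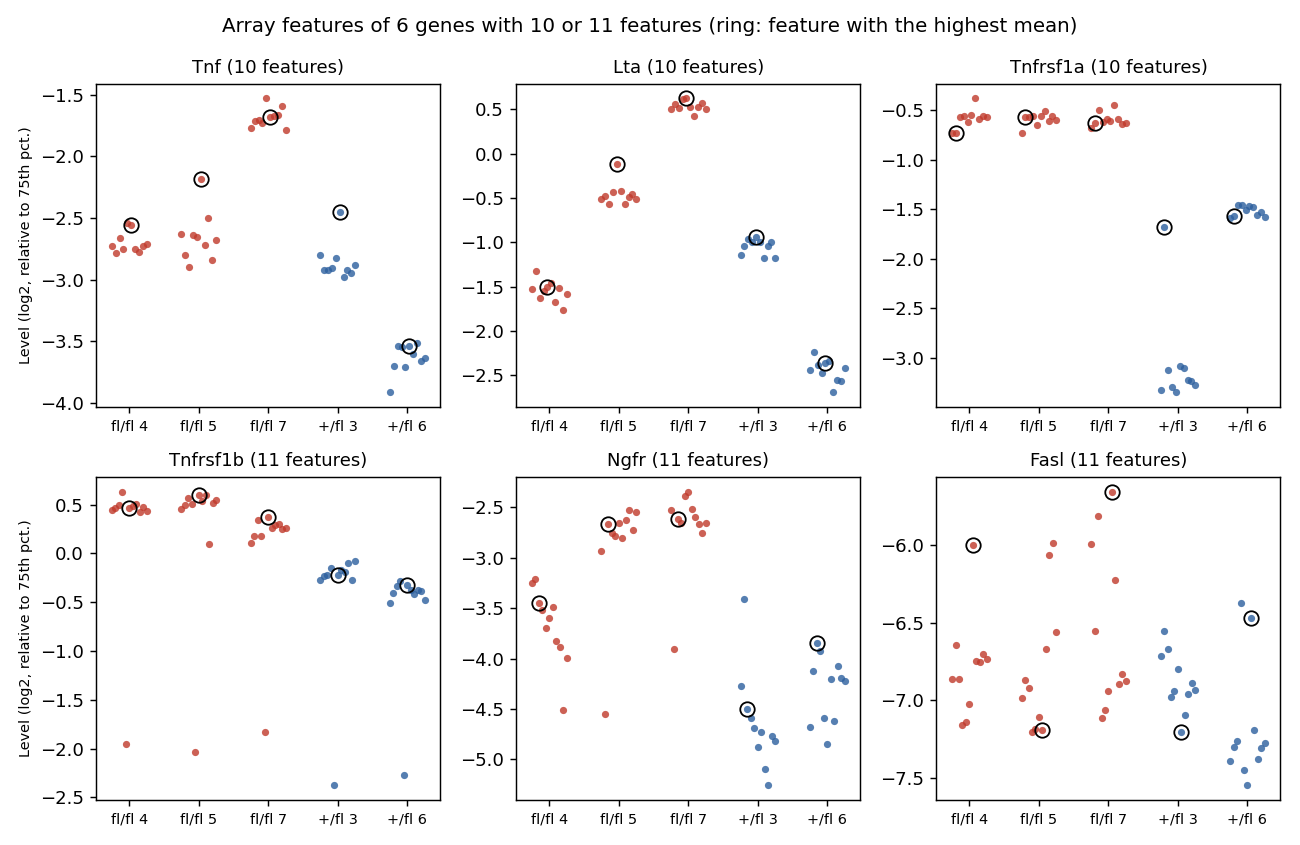
Levels of all features of the 6 genes with 10 or 11 features, by culture (Ebf fl/fl in red, Ebf+/fl in blue), as log2 of intensity over the array's 75th percentile. The ring marks the feature with the highest mean; for Tnfrsf1a it lies at -1.68 in Ebf+/fl 3, where the other 9 lie between -3.35 and -3.08.

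Tnfsf14 encodes LIGHT, a ligand of the lymphotoxin beta receptor and of the receptor Tnfrsf14. It was at -4.29, -3.25 and -4.60 in Ebf fl/fl cultures 4, 5 and 7, against -5.41 and -6.58 in Ebf+/fl cultures 3 and 6, both below the lower limit. With the lower limit in place of the Ebf+/fl values, the mean level was at least 2.58-fold higher in Ebf fl/fl cultures. Tnfsf14 entered the test only through the Ebf fl/fl arrays and did not pass (limma adjusted p = 0.0625). The difference is given as a description. Tnfrsf14 had a log2 fold change of -0.53 (adjusted p = 0.448), and Ebf+/fl 3 at -1.65 stood apart from Ebf+/fl 6 at -3.12. Ltbr, the lymphotoxin beta receptor, exceeded the lower limit only in Ebf fl/fl 4 and was not tested. Of the 7 tested genes of this group, 2 rose and 0 fell, beside 8.58% and 8.74% of all tested genes.

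Among the receptors for BAFF and APRIL, Tnfrsf13b encodes TACI, which binds both ligands. At its brightest feature it stood at 3.68, 3.77 and 3.69 in Ebf fl/fl cultures 4, 5 and 7, against 3.22 and 3.10 in Ebf+/fl cultures 3 and 6. Replicates were close, and the rise was small: 1.47-fold (log2 fold change 0.55, SE 0.13, limma adjusted p = 0.0318). A second feature, at -4.13 to -2.95 over the 5 arrays, gave a log2 fold change of 0.80 (limma adjusted p = 0.116 over features). The call was lost without any 1 culture, with adjusted p of 0.0884, 0.0600 and 0.0645 without Ebf fl/fl 4, 5 and 7, and of 0.125 and 0.136 without Ebf+/fl 3 and 6. It was also lost without scaling (0.179), without the variance trend (0.0735) and with the cultures high in Xist as a block (0.0776).

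Tnfrsf13c, the BAFF receptor on which mature B cells depend, had similar levels in both groups, with a narrow interval. It was at 2.91, 3.11 and 2.99 in Ebf fl/fl cultures, against 2.91 and 3.13 in Ebf+/fl cultures, which leaves a log2 difference of -0.01 (95% interval -0.35 to 0.33, adjusted p = 0.965). Tnfsf13b, the gene of BAFF, had a log2 fold change of 0.61 (adjusted p = 0.316), at -4.41 to -3.51 in Ebf fl/fl cultures and -4.61 in both Ebf+/fl cultures, and its second feature was below the lower limit throughout. Tnfsf13, the gene of APRIL, and Tnfrsf17, the receptor BCMA of plasma cells, were below the lower limit in all 5 arrays.

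Among the costimulatory pairs, Tnfsf8, the ligand of CD30, fell with Tnfrsf18. It was at -1.07, -1.07 and -0.06 in Ebf fl/fl cultures 4, 5 and 7, against 0.86 and 0.77 in Ebf+/fl cultures 3 and 6. Ebf fl/fl 7 lay closest to the Ebf+/fl cultures without reaching them. The gene fell 2.92-fold (log2 fold change -1.55, SE 0.33, limma adjusted p = 0.0251). It did not pass without Ebf fl/fl 4 (adjusted p = 0.0530) or 5 (0.0783) or without Ebf+/fl 3 (0.133) or 6 (0.0785), nor without the variance trend (0.0536). Its receptor Tnfrsf8 was below the lower limit in all 5 arrays.

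Cd27, a receptor of memory B cells and T cells, had levels of -0.55, -1.86 and -1.10 in Ebf fl/fl cultures 4, 5 and 7, against -2.20 and -3.73 in Ebf+/fl cultures 3 and 6. The groups were separate, with a wide spread inside each (log2 fold change 1.79, SE 0.54, limma adjusted p = 0.0688). Its ligand Cd70 was near the lower limit, between -6.08 and -4.40 in Ebf fl/fl cultures and at -5.67 and -5.07 in Ebf+/fl cultures. Tnfsf4, the ligand of OX40, was at -7.16, -4.58 and -3.83 in Ebf fl/fl cultures, against -1.19 and -3.04 in Ebf+/fl cultures. All Ebf fl/fl cultures were lower, but the cultures of a group differed widely. The log2 difference of -3.08 came with an SE of 1.03 (limma adjusted p = 0.0893). Ebf fl/fl 4 was below the lower limit, and without it the log2 difference was -2.09. Tnfsf9, the ligand of 4-1BB, had a log2 fold change of -0.50 (adjusted p = 0.347) and its receptor Tnfrsf9 was not tested. In this group 2 of 7 tested genes fell and 0 rose, beside 8.74% and 8.58% of all tested genes.

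Tnfrsf12a encodes Fn14, the receptor of TWEAK, which is widely expressed in stromal and injured tissue. Its level was 0.04, 0.02 and -0.37 in Ebf fl/fl cultures 4, 5 and 7, against -1.63 and -1.12 in Ebf+/fl cultures 3 and 6. The highest Ebf+/fl culture remained below the lowest Ebf fl/fl culture. Tnfrsf12a rose 2.43-fold (log2 fold change 1.28, SE 0.24, limma adjusted p = 0.0161), and did not pass without Ebf fl/fl 5 (adjusted p = 0.0570) or Ebf+/fl 3 (0.0939). Of the 12 stromal markers, 6 to 8 exceeded the lower limit in Ebf fl/fl cultures and 5 or 6 in Ebf+/fl cultures. Of 6 tested, Sparc rose 3.09-fold and 0 fell, beside 8.58% and 8.74% of all tested genes. Without overlap 4 of the 6 were higher in Ebf fl/fl cultures and 1 was lower, beside 30.5% and 21.2% of all tested genes. The lower one was Fn1 (log2 fold change -0.96, limma adjusted p = 0.253). The part of stromal cells in the change of Tnfrsf12a was not tested. The TWEAK gene Tnfsf12 was below the lower limit in all 5 arrays.

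Tnfsf11, the ligand RANKL of bone and lymph node development, had 2 features with log2 fold changes of 0.06 and -0.14 (limma adjusted p = 0.937 in the gene fit, 95% interval -0.82 to 0.94). For its receptor Tnfrsf11a the log2 difference was -0.09 (95% interval -1.19 to 1.02). A second Tnfrsf11a feature, below the lower limit in all Ebf fl/fl cultures and above it in Ebf+/fl 3 alone, was not tested. The mean of both features had a log2 difference of -0.76 (adjusted p = 0.211). The decoy Tnfrsf11b and the receptor Eda2r did not exceed the lower limit in any array. In all, 11 members were not tested: at the brightest feature, 9 lay below the limit in all 5 arrays, and Ltbr and Tnfsf18, the ligand of GITR, exceeded it in 1. Another feature of Tnfrsf9 exceeded it in Ebf fl/fl 7, at -4.68. Levels of these 11 at the brightest feature lay between -7.73 and -4.69, where no direction can be read.

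Within the genome, 14 pairs of superfamily genes lay beside each other with at most 1 coding gene between, in the order of RefSeq GRCm38.p6. Both members were tested in 7 of the 14 pairs, and both were called in 0 of these 7. Among the tested members 34.5% were called, beside 17.3% of all tested genes. With so few pairs, whether neighbours change together cannot be read. In the Tnfrsf26, Tnfrsf22 and Tnfrsf23 cluster the log2 fold changes were 0.78, 0.90 and 0.30. On chromosome 6, Tnfrsf1a and Cd27 lie on either side of Ltbr, which was not tested, and their log2 fold changes were 0.98 and 1.79.

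Superfamily genes that carry other symbols, and the adaptor gene Edaradd, were read beside these members. Fas, the death receptor of Fas ligand, fell 2.07-fold (limma adjusted p = 0.0391), at -1.65, -1.37 and -0.91 in Ebf fl/fl cultures 4, 5 and 7, against -0.41 and -0.10 in Ebf+/fl cultures 3 and 6. Relt, a receptor of lymphoid tissue, rose 2.49-fold (adjusted p = 0.0262). Edaradd, the adaptor of the ectodysplasin receptor, fell 6.33-fold (adjusted p = 0.0238), at 0.82, 2.83 and 2.52 in Ebf fl/fl cultures, against 4.70 and 4.74 in Ebf+/fl cultures. Cd40 had a log2 fold change of -0.94 (adjusted p = 0.153), and Cd40lg, Eda and Edar were not tested. Fas did not pass without Ebf fl/fl 4 (0.0907) or 5 (0.100) or without Ebf+/fl 3 (0.0872) or 6 (0.148). Relt did not pass without Ebf fl/fl 5 (0.0708) or without Ebf+/fl 3 (0.0689) or 6 (0.104), nor Edaradd without Ebf+/fl 3 (0.116) or 6 (0.0812).

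Of the list of adaptors, kinases and regulators that act downstream of these receptors, 41 of 46 genes were tested, 5 rose, 6 fell and 30 did not pass, beside 8.58% of all tested genes that rose and 8.74% that fell. Their median log2 fold change was -0.0004, against 0.10 over all tested genes. Without 1 culture 1 to 4 rose and 1 to 4 fell: 2 and 3 without Ebf fl/fl 4, 1 and 2 without Ebf fl/fl 5, 4 and 4 without Ebf fl/fl 7, 1 and 1 without Ebf+/fl 3, and 2 and 3 without Ebf+/fl 6. Without the variance trend 3 rose and 2 fell, and the same counts held with the Xist-high cultures as a block, where Casp8 (adjusted p = 0.0588), Madd (0.0628), Nfkbie (0.0790), Tnip2 (0.0695), Traf4 (0.0528) and Traf6 (0.0697) did not pass.

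Tnfaip3, the gene of A20, an enzyme that limits signalling to NF-kappaB, fell 3.01-fold and passed under all 17 alternatives. Its level was 1.15, 1.16 and 0.81 in Ebf fl/fl cultures 4, 5 and 7, against 2.55 and 2.71 in Ebf+/fl cultures 3 and 6 (log2 fold change -1.59, SE 0.17, limma adjusted p = 0.00265). No overlap was seen. Cyld, another enzyme that removes ubiquitin from signalling proteins of this pathway, rose 1.65-fold (adjusted p = 0.0174). Nfkbie, an inhibitor of NF-kappaB, fell 1.68-fold (adjusted p = 0.0386), and Tnip2, a partner of A20, rose 1.68-fold (adjusted p = 0.0405). The inhibitor Nfkbia had a log2 fold change of -0.81 (adjusted p = 0.0933). Cyld did not pass without Ebf fl/fl 4 (adjusted p = 0.0577), Ebf+/fl 3 (0.0974) or Ebf+/fl 6 (0.0660). For Nfkbie this held without any 1 culture (0.0516 to 0.153), and for Tnip2 without any 1 except Ebf+/fl 3 (0.0771 to 0.147).

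Map3k14, the kinase NIK of the non-canonical NF-kappaB pathway used by the BAFF and lymphotoxin receptors, rose 2.15-fold. It was at 2.98, 3.01 and 2.46 in Ebf fl/fl cultures, against 1.63 and 1.79 in Ebf+/fl cultures (limma adjusted p = 0.0157). Traf5 rose 2.60-fold (adjusted p = 0.0180), while Traf4 and Traf6 fell 2.15- and 1.63-fold (adjusted p = 0.0265 and 0.0320). All 3 encode adaptors of the TRAF family. Map3k14 did not pass without Ebf fl/fl 5 (0.0526) or Ebf+/fl 3 (0.102), nor Traf5 without Ebf fl/fl 5 (0.0657) or Ebf+/fl 3 (0.0899). Traf4 did not pass without Ebf+/fl 3 (0.114) or 6 (0.0986), and Traf6 passed in no fit without 1 culture (0.0535 to 0.132). The NF-kappaB subunit genes Nfkb2 and Relb had log2 fold changes of -0.29 and -0.17 (adjusted p = 0.508 and 0.704).

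On the cell death branch, Mlkl, the effector of necroptosis, and Casp8, the caspase that death receptors activate, fell (limma adjusted p = 0.0250 and 0.0273), Casp8 by 1.72-fold. Mlkl was at -5.47, -5.70 and -5.80 in Ebf fl/fl cultures 4, 5 and 7, against -2.38 and -3.98 in Ebf+/fl cultures. Ebf fl/fl 5 and 7 were below the lower limit and 4 was at its edge, so the size of the fall is not resolved. Apart from culture 4, Mlkl entered the test only through the Ebf+/fl arrays, and its call is given as a description. The Ebf+/fl cultures differed from each other: the fitted log2 fold change was -1.68 without Ebf+/fl 3 (adjusted p = 0.143) and -3.28 without Ebf+/fl 6, and Mlkl also did not pass without Ebf fl/fl 5 (0.0734). Casp8 did not pass without Ebf fl/fl 4 (0.0631) or 5 (0.0652) or without Ebf+/fl 3 (0.172). Madd, which binds the death domain of TNF receptor 1, rose 1.53-fold (adjusted p = 0.0277) but not without any 1 culture except Ebf fl/fl 7 (0.0599 to 0.128). The adaptors Tradd and Fadd had log2 fold changes of -0.10 and 0.60 (adjusted p = 0.746 and 0.0620), and Cflar, an inhibitor of Casp8, one of -0.04 (0.919).

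**Figure D4:**
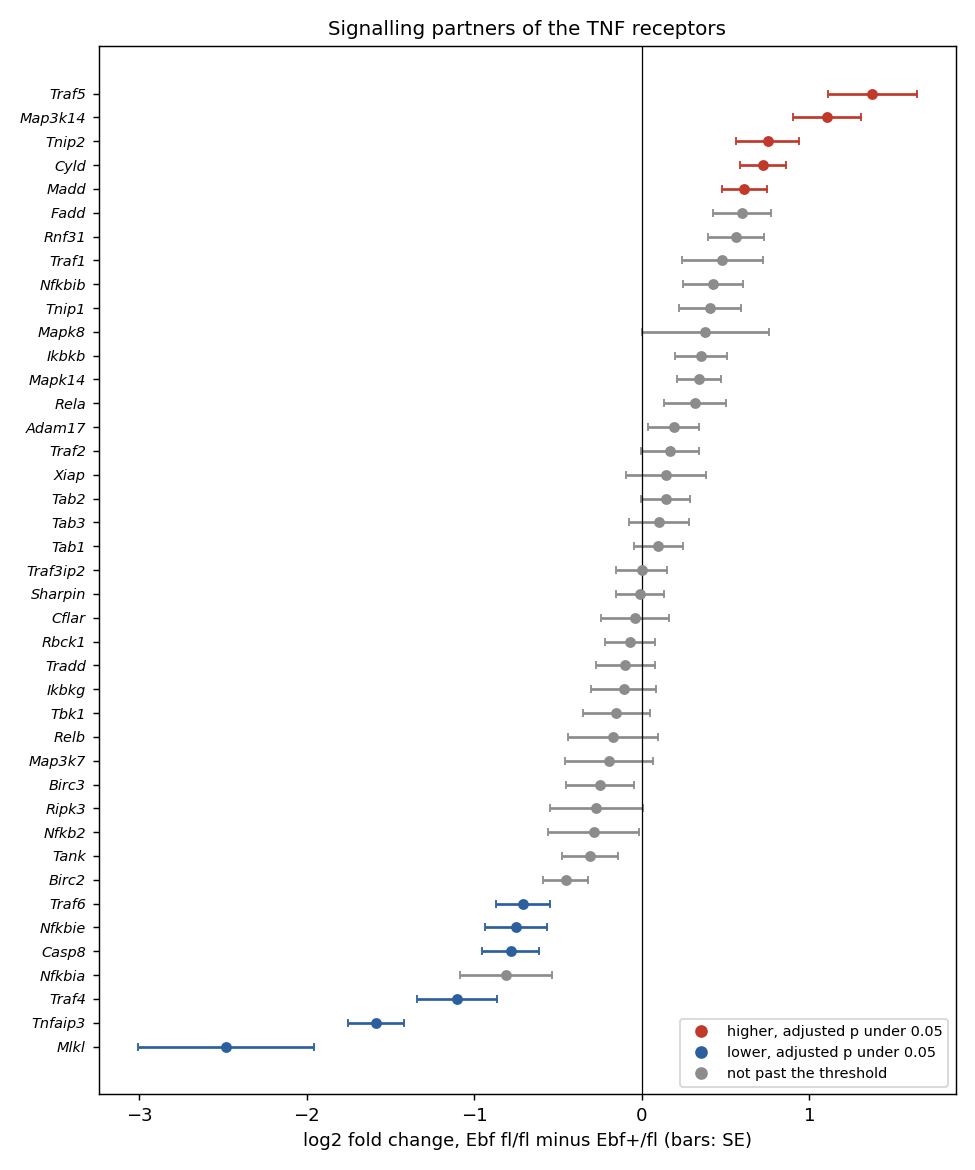
Log2 fold change of the 41 tested signalling partners, Ebf fl/fl minus Ebf+/fl (x axis), with bars for the standard error from the fit. Red, blue and grey points rose (5), fell (6) or did not pass (30); Traf5 and Map3k14 lie farthest right and Mlkl and Tnfaip3 farthest left.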

How the data were processed

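The authors deposited a linear intensity for each feature of each array. Feature Extraction (Agilent) is the tool that the submitters' processing notes name, and no source used here gives its version, background handling or spot flags. The 75th percentiles of the arrays ranged from 306 to 430, and the number of arrays limits the precision. Log2 intensities were scaled by that percentile, all features included. Of 45018 features 33653 had 1 gene symbol; the 56 with several symbols and the 11309 without one stayed unnamed. Group differences were fitted in R 4.3.3 by limma 3.58.1 (lmFit, then eBayes with an intensity trend; two-sided, Benjamini-Hochberg), over 13419 genes, and separately over 28007 features, which include unnamed ones. The fit was also run on data simulated from its own variance model, which does not test that model. For a group below the lower limit throughout, the limit itself gave the bound in "at least". The annotation does not tell repeated spots from different probes of a gene. All members may be named, with up to 6 signalling partners per direction past the threshold. The members and lists were chosen with earlier results of these data known. Alternatives covered scaling, the filter, the probe choice, the variance model, array weights and each culture left out. The deposited values carry no genome build; chromosomes, neighbouring genes and promoter windows are those of RefSeq GRCm38.p6.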

Additional observations from a re-analysis of the deposited data

How the results depend on the processing

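With 15 alternative settings and 2 more chosen after seeing the data (the median of a gene's features, and the cultures high in Xist as a block), the 10 called members gave 170 values: 133 kept the call, 37 did not pass and 0 reversed. Of the 186 values of the called signalling partners 54 did not pass. Without scaling, 1 member (against 5) and 2 partners rose. Array weights gave 8 members that rose. Without the variance trend 3 partners rose and 2 fell, and with the median of features 3 partners rose. The Xist block gave 1483 genes past the threshold (against 2324), 2 members that rose, and 3 partners that rose and 2 that fell. Without 1 culture each, between 702 and 2003 genes passed, 1 to 4 members rose and 2 to 5 fell, and among the partners 1 to 4 rose and 1 to 4 fell. In fits with 1 Ebf+/fl culture the lone sample is assumed to vary like the other group. The cause of these shifts was not tested beyond the smaller number of samples. No paired analysis was possible because the groups share no replicate numbers. With 3 and 2 arrays per group, and 11 members near or below the lower limit, changes in dim members could not be resolved.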
